A study of Mus musculus with 17 samples.

Results

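The 9 macrophage lineage transcription factors Spi1, Spic, Irf4, Irf8, Maf, Zeb2, Id1, Id3 and Runx1 were followed by gene symbol through the expected count tables of a mouse liver study. All 9 had a row among the 18185 genes of the Kupffer cell table, and all 9 passed the filter on low counts. In the tables of early hepatocellular carcinoma (HCC) cells and normal liver cells, which served as a reference for cells that are not macrophages, 8 of the 9 had a row among 17140 genes and 6 passed the filter.

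These factors set up and hold the macrophage state. PU.1, the ETS-family product of Spi1, opens enhancers throughout the myeloid lineage and works with partners such as IRF4 and IRF8, RUNX1 acts upstream of it in blood formation, and SpiC, its close relative, is known in mice from the iron-recycling macrophages of spleen and liver. In mouse macrophages c-Maf restrains self-renewal and ZEB2 helps to hold tissue identity, while ID1 and ID3 block the E proteins, and Id3 is known as a factor of Kupffer cell development. Several of these genes are not restricted to macrophages: Maf, Id1 and Id3 are also known from endothelial cells, and Irf4 and Irf8 from dendritic and B cells.

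RNA was sequenced from Kupffer cells, macrophages that reside in the liver, of mice induced with DEN (the abbreviation in the labels, in liver work usually the carcinogen diethylnitrosamine) and taken from what the labels call the PME, an abbreviation they do not expand. The libraries carried the labels KC1 (4 libraries) or KC2 (4 libraries), names used in mouse liver for a major Kupffer cell subset and for a smaller one with CD206 and ESAM on the surface. How the cells were separated is not stated in the labels. The reference libraries came from early HCC cells of DEN-induced mice with Mef2d, a gene for a MEF2 family transcription factor, wild type (WT, 3 libraries) or knocked out (KO, 3 libraries), and from normal liver cells of mice with no treatment named (3 libraries). Neither the age of the mice nor the knockout method is given in the labels, and they do not say that replicates came from separate animals, so a p-value here sets a difference against library-to-library spread alone, part of which may be technical.

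Totals ran from 15353249 to 16743459 expected counts in the Kupffer cell libraries, from 16604606 to 17683298 in early HCC cells and from 18467849 to 18637765 in normal liver cells. Mef2d was 101 CPM in WT and 66.7 CPM in KO cells, a log2 fold change of -0.60 ± 0.04 (SE, 3 against 3 libraries, edgeR quasi-likelihood test, Benjamini-Hochberg adjusted p = 7.17e-09), so transcript was still counted in the libraries labelled KO. The KC2 library of replicate 1 stood apart from the other 3: its chi-square per degree of freedom against them was 131 to 168, against 23.2 to 38.0 among the other KC2 libraries.

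The cell type label was checked against marker genes, summed per library in CPM (counts scaled to a common library total). Of the Kupffer cell markers, Clec4f was found at 3092 to 4733 CPM in KC1 and at 227, 1789, 1882 and 2148 CPM in KC2 replicates 1 to 4, and Timd4 at 368 to 412 CPM in KC1 and 9.74, 68.9, 78.0 and 89.8 CPM in KC2. Of the 13 resident Kupffer cell markers tested, 6 were lower and 1, Clec1b, was higher (log2 fold change 0.98, adjusted p = 0.0152), and Clec4f (-1.27, adjusted p = 0.0564), Vsig4 (0.32), Cdh5 (0.31) and Cd207 (1.11) were among those that did not pass. These markers summed to 17552 to 24515 CPM in KC1 and 1113 to 6257 CPM in KC2, and 10 pan-macrophage genes to 22221 to 26041 CPM and 4807 to 19305 CPM. Of the pan-macrophage genes 5 were lower and 0 higher, Csf1r, Tyrobp, Mertk and Ctss did not pass, and Lyz2 had a log2 fold change of 0.25 (adjusted p = 0.593). Over all 12774 genes tested between KC2 and KC1, 27.9% were called lower and 31.9% higher. Mrc1, which encodes CD206, was 139 CPM in KC1 and 840 CPM in KC2, and Esam was 8.76 CPM and 619 CPM.

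Marker sums of several other cell types were higher in every KC2 library than in any KC1 library. Sinusoidal endothelial markers summed to 938 to 1479 CPM in KC1 and 18982 to 32115 CPM in KC2, where all 12 genes of the list rose. T and NK cell markers summed to 4.10 to 8.36 CPM against 167 to 517 CPM, B and plasma cell markers to 10.3 to 18.2 CPM against 160 to 621 CPM, and dendritic cell markers to 19.1 to 26.5 CPM against 257 to 404 CPM. Ncr1, Cd209a, Epcam and Cftr had no count in any KC1 library. Cholangiocyte markers summed to 7.25 to 16.5 CPM against 160 to 798 CPM. Spp1 made up most of this sum, at 11.5 ± 4.44 CPM in KC1 and 391 ± 255 CPM in KC2, and Sox9 came next in KC2, at 10.4 ± 6.69 CPM. Proliferation genes summed to 67.0 to 102 CPM against 137 to 198 CPM. Hepatocyte markers summed to 113 to 209 CPM against 293 to 613 CPM. Of these 9 hepatocyte genes 6 rose, among them Hp, from 57.5 ± 16.8 to 262 ± 178 CPM. Fgb fell from 32.2 ± 13.2 to 7.78 ± 3.89 CPM (log2 fold change -2.05, adjusted p = 0.000948), and Cps1 and Tat did not pass. The sums overlapped between groups for neutrophil markers (491 to 788 CPM against 671 to 4561 CPM). Csf3r made up most of the KC1 neutrophil sum, at 558 ± 76.2 CPM against 552 ± 369 CPM in KC2 (log2 fold change -0.01, adjusted p = 0.982). Of the 8 neutrophil genes tested, 7 rose and 0 fell, with a median log2 fold change of 4.95. Stellate and fibroblast sums overlapped too (18.1 to 44.9 CPM against 21.9 to 28.8 CPM). Erythroid and platelet sums also overlapped (77.3 to 246 CPM against 201 to 330 CPM). The monocyte sum was lower in KC2 (489 to 1105 CPM against 2280 to 2521 CPM), through Itgam, Treml4 and Plac8, which fell, while 4 of the 8 genes rose, Ly6c2 and Ccr2 among them, and the median log2 fold change was 1.74. The part of these cells in the results on the lineage factors was not tested, and in bulk libraries fewer cells of a type and less RNA per cell cannot be told apart.

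**Figure D1:**
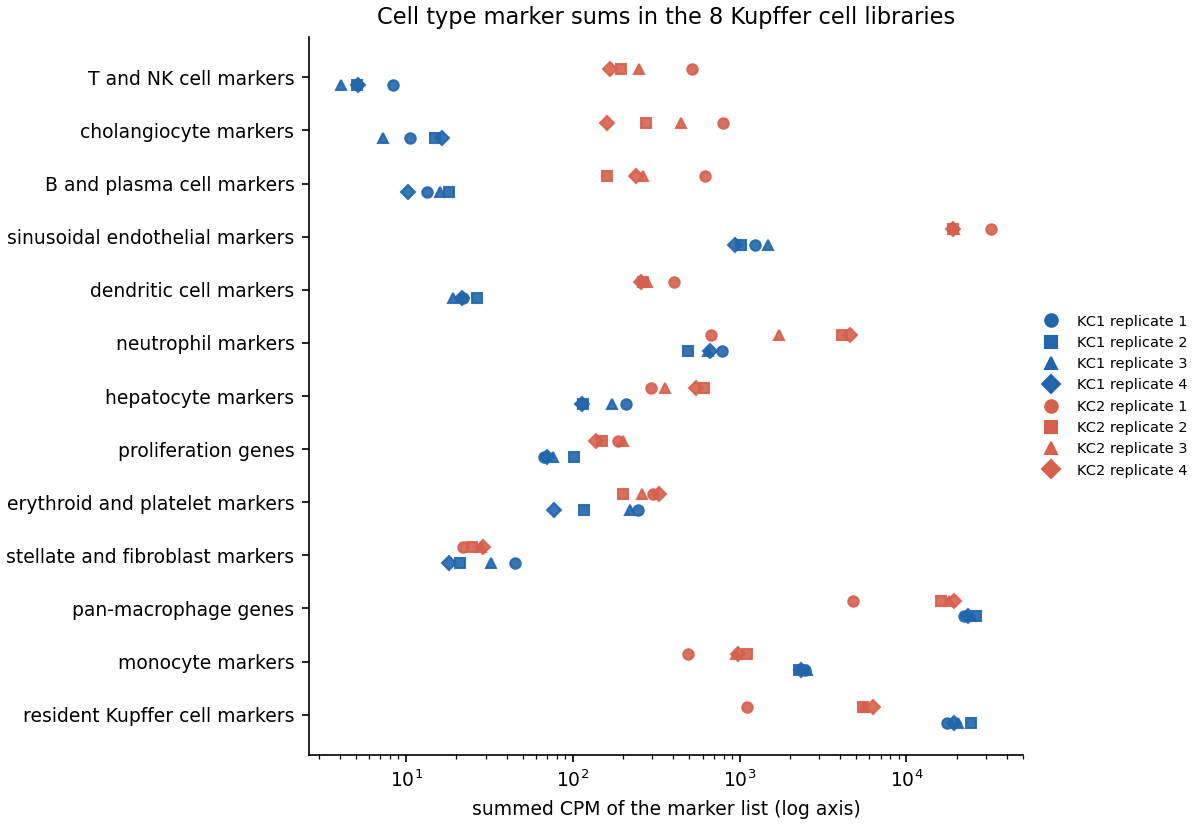
Summed CPM (log axis) of 13 marker lists in each of the 8 Kupffer cell libraries, blue for KC1 and red for KC2, with a symbol for each replicate number. KC2 replicate 1 (red circles) is highest in sinusoidal endothelial markers at 32115 CPM and lowest in pan-macrophage genes at 4807 CPM.

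Upstream sequence is shown for Spic and Zeb2, which fell most between KC1 and KC2, and for Id3, which with Maf was higher in KC2, to set it beside their levels. RefSeq promoters of GRCm38.p6 (the assembly of build mm10) were matched for 6 of the 9 genes, with 11 start sites in all, and the 250 bases before a start were searched on both strands for 5 short motifs, which do not overlap each other in the sequences shown. Spic is gene 20728 on chromosome 10, 88675269 to 88683023 on the minus strand, and its upstream window is chr10:88683024-88683273. Zeb2 is gene 24136 on chromosome 2, 44983512 to 45117442 on the minus strand, and the window of its outermost start is chr2:45117443-45117692. Id3 is gene 15903 on chromosome 4, 136143822 to 136145392 on the plus strand, and its window is chr4:136143572-136143821. The sequences run 5′ to 3′ towards the start on the strand of the gene, and capitals mark motif matches:
Spic: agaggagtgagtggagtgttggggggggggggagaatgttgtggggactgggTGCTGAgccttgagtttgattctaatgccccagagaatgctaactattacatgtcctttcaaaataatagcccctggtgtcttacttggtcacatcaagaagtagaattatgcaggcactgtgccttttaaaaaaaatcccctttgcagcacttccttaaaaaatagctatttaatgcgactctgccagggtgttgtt
Zeb2: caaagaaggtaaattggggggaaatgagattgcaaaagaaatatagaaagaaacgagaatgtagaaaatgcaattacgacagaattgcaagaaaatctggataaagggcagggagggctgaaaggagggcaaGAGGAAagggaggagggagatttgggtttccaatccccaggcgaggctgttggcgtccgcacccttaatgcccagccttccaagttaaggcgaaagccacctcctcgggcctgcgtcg
Id3: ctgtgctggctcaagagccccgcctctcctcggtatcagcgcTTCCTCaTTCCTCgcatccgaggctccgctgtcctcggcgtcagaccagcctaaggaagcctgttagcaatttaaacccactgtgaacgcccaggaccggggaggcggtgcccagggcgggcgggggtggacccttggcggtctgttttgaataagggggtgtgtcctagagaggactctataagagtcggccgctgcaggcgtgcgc

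The capitals in Spic are TGCTGA, the core of Maf recognition elements, 198 bases before the start. The PU.1-type ETS core GAGGAA lies 118 bases before the start shown for Zeb2, and its reverse complement TTCCTC lies 208 and 201 bases before that of Id3. GAGGAA was found in 23.3% of 32851 promoter windows of the same length, in either orientation, TGCTGA in 16.1%, the E-box CACCTG in 17.2%, the Runx core TGTGGT in 14.0% and the GC-rich SMAD element GGCGCC in 9.59%. GAGGAA was also in the 3 other Zeb2 windows, of which 2 overlap and hold the same site, in the Irf4 window and in 1 of the 2 Runx1 windows, and the more upstream of the 2 Irf8 windows held none of the 5 motifs. A match describes these letters only, and a window without a match says nothing about a factor.

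Of the 9 factors, 5 passed the test between KC2 and KC1 at an adjusted p under 0.05: Maf and Id3 were higher in KC2, and Spic, Zeb2 and Id1 were lower. The same test called 59.8% of the 12774 genes tested, with 31.9% higher and 27.9% lower, so 5 of 9 lay near the background, and the direction and size of each factor carry the description. The median log2 fold change was -0.31 over the 9 factors and 0.03 over all genes. Log2 fold changes are KC2 relative to KC1, from edgeR's quasi-likelihood test with Benjamini-Hochberg adjustment over all genes tested, and levels are mean ± SD over 4 libraries. The standard error of a log2 fold change was derived as its absolute value divided by the square root of the F statistic of that test.

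**Figure D2:**
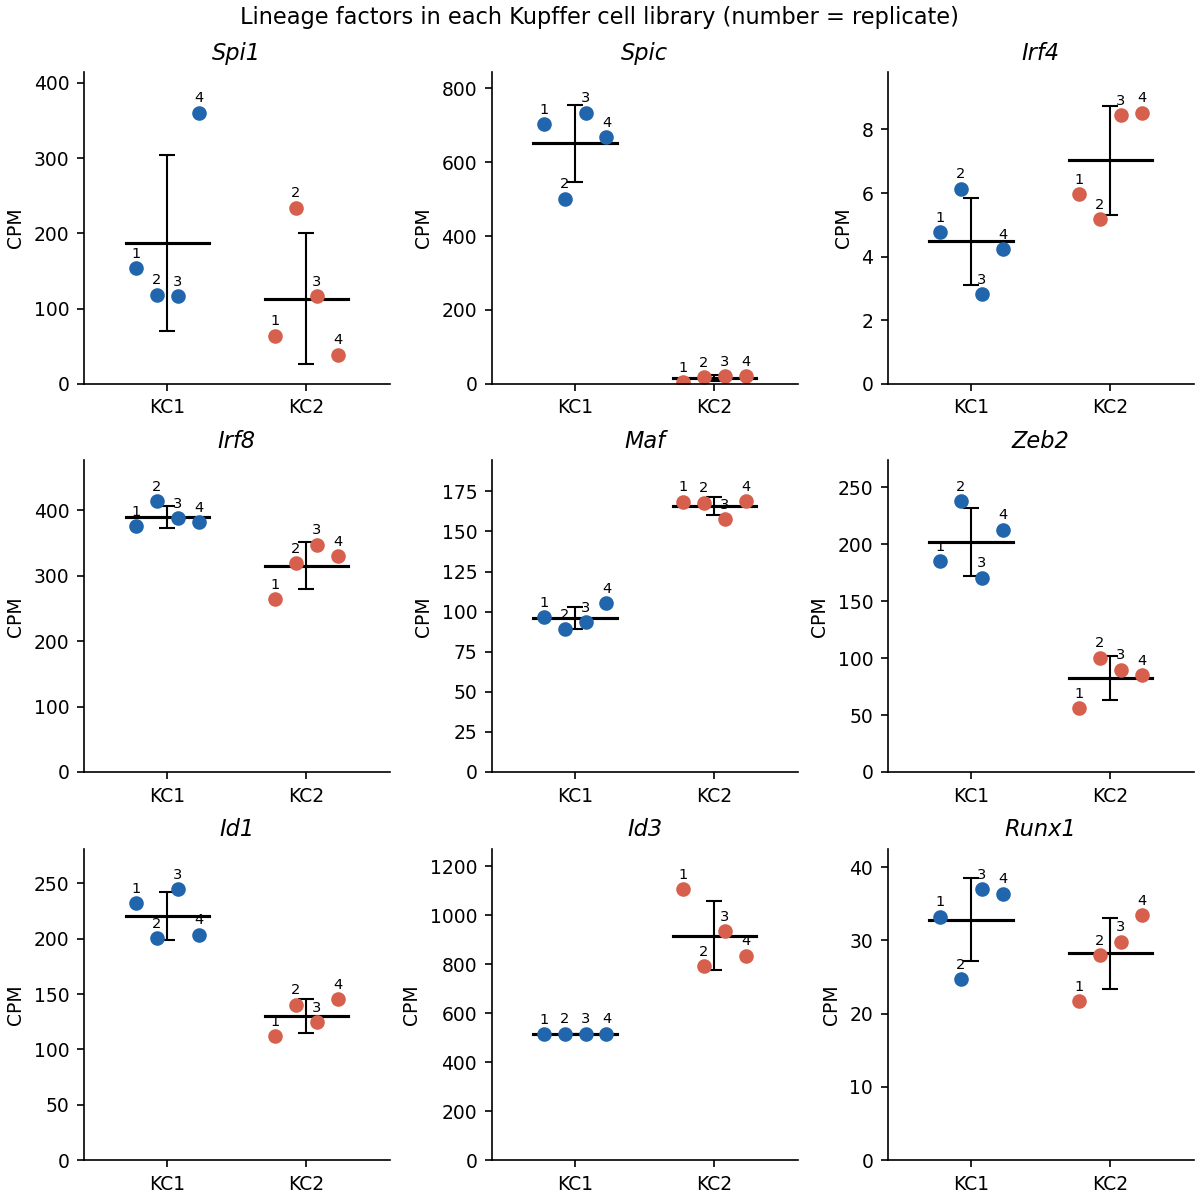
CPM (linear axis from 0) of each factor in the 4 KC1 (blue) and 4 KC2 (red) libraries, numbered by replicate, with the mean (line) and SD (bar). The KC1 and KC2 libraries do not overlap for Spic, Irf8, Maf, Zeb2, Id1 and Id3, and they overlap for Spi1, Irf4 and Runx1. The share without overlap over all genes was not counted, and the test called 59.8% of them, so a lack of overlap does not set these factors apart.

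Spic showed the widest difference of the 9. Its level was 703, 501, 733 and 667 CPM in KC1 replicates 1 to 4 and 4.67, 17.2, 19.9 and 20.4 CPM in KC2 replicates 1 to 4. Every KC1 library lay above every KC2 library, and the lowest KC2 value was in replicate 1. The mean was 651 ± 104 CPM against 15.6 ± 7.40 CPM, a 41.8-fold difference, and Spic fell by 5.39 ± 0.43 on the log2 scale (adjusted p = 2.92e-06). Only 40 of the genes tested had a lower log2 fold change than Spic. Cxcl13 and Tnip3 had the profiles most like that of Spic over the 8 libraries, with root mean square differences of 0.29 and 0.32 in centred log2 CPM among 8767 genes with a mean of at least 10 CPM.

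Of a list of 12 genes, mostly of iron and heme handling and chosen around SpiC, 10 were lower in KC2 and none higher. Over all genes tested 27.9% were lower and 31.9% higher. The median log2 fold change of the list was -1.56. Whether SpiC controls each of these genes was not tested. Hmox1, which degrades heme, fell from 3012 ± 322 to 404 ± 189 CPM (log2 fold change -2.90 ± 0.38, adjusted p = 8.19e-05). Lrp1, a receptor that takes up heme bound to hemopexin, fell from 1494 ± 304 to 211 ± 108 CPM (-2.82 ± 0.45, adjusted p = 0.000338). The iron exporter Slc40a1 also fell, with a log2 fold change of -1.23 (adjusted p = 0.0203). Vcam1 (-0.30, adjusted p = 0.546) and the haptoglobin-hemoglobin receptor gene Cd163 (-0.81, adjusted p = 0.293) did not pass the test. The KC1 mean of Slc40a1 rested in part on replicate 2, at 2440 CPM against 846 to 945 CPM in the other 3 libraries. The count was 9 lower without KC1 replicate 2 and 10 lower without any other library, with 0 higher throughout.

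Spi1 did not differ beyond its spread. Its level was 153, 118, 116 and 360 CPM in KC1 and 63.7, 234, 116 and 38.6 CPM in KC2. The groups overlapped, with KC1 replicate 4 above all others and KC2 replicate 4 below all others. The mean was 187 ± 117 CPM against 113 ± 86.9 CPM, and the log2 fold change of -0.72 ± 0.54 had an adjusted p of 0.265. Leaving out 1 library at a time gave -1.36 to -0.20, and without KC2 replicate 2 the value was -1.36 with an adjusted p of 0.0362. Among 5443 genes with a mean of at least 20 CPM in each group, only 5 had a wider spread than Spi1 by the smaller of its SDs of log2 CPM in KC1 and KC2 (0.77 and 1.12).

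The gene whose profile was most like that of Spi1 was C1qc, a chain of complement C1q, at a root mean square difference of 0.34. C1qc was 474, 583, 362 and 1134 CPM in KC1 and 161, 855, 557 and 183 CPM in KC2, so it was highest in the same KC1 and the same KC2 library as Spi1. Its partner chains did not vary in that way within KC1, where C1qa ranged from 3088 to 3735 CPM and C1qb from 7487 to 8358 CPM. Vps37a followed C1qc in likeness, at 0.48.

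Targets of PU.1 were lower in KC2 in 12 of 18 cases, with none higher and a median log2 fold change of -1.12. Over all genes tested 27.9% were lower and 31.9% higher. Itgam, the alpha chain of complement receptor 3, fell from 877 ± 36.5 to 116 ± 69.2 CPM (-2.92 ± 0.46, adjusted p = 0.000301), and Cd68, a lysosomal glycoprotein, from 2311 ± 152 to 497 ± 241 CPM (-2.22 ± 0.39, adjusted p = 0.000603). Csf1r, the receptor for macrophage colony-stimulating factor, had a log2 fold change of -0.97 (adjusted p = 0.0717) and Fcgr3 of 0.18 (adjusted p = 0.736). Without KC2 replicate 1, 15 were lower and 1 was higher. Several of these genes also stand in the pan-macrophage list.

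Among ETS, C/EBP and AP-1 partners of PU.1, 9 of the 16 tested were higher and 2 lower, against 31.9% and 27.9% of all genes tested, with a median of 1.10. Ets1 rose from 33.9 ± 5.79 to 412 ± 50.3 CPM (3.60 ± 0.17, adjusted p = 1.28e-07) and Spib, a close relative of Spi1 known from B cells and plasmacytoid dendritic cells, from 0.742 ± 0.630 to 12.8 ± 6.83 CPM (4.10 ± 0.56, adjusted p = 0.000115). Elf4 (-1.75 ± 0.20, adjusted p = 3.31e-05) and Etv6 (-1.40 ± 0.15, adjusted p = 1.73e-05) fell. The ETS family thus held members that moved in opposite directions in the same libraries.

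Zeb2 was lower in KC2. Its level was 185, 238, 171 and 213 CPM in KC1 and 55.8, 100, 89.9 and 84.9 CPM in KC2. The groups did not overlap, and KC2 replicate 1 was the lowest library. The mean was 202 ± 29.8 CPM against 82.8 ± 19.1 CPM, and Zeb2 fell by 1.29 ± 0.19 on the log2 scale (adjusted p = 0.000188). The profiles most like it were those of Hps3 and Zfp202, at 0.09 and 0.10. Zeb2 has an antisense neighbour, Zeb2os, and whether counting used the strand is not given in the sources used here, so reads of the pair may not be separated.

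The paralog Zeb1 moved the other way, from 7.91 ± 2.15 to 122 ± 7.20 CPM (3.94 ± 0.20, adjusted p = 1.74e-07). Zeb1 was below Zeb2 in every KC1 library and above it in every KC2 library in CPM, a comparison not corrected for transcript length.

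The inhibitors of E proteins split. Id1 was 232, 200, 245 and 203 CPM in KC1 and 112, 140, 125 and 146 CPM in KC2, with no overlap, and fell by 0.75 ± 0.13 on the log2 scale (220 ± 21.7 against 131 ± 15.4 CPM, adjusted p = 0.000636). Id3 was 516, 516, 517 and 517 CPM in KC1 and 1107, 792, 934 and 835 CPM in KC2. The groups did not overlap, and KC2 replicate 1 was the highest library for Id3 and the lowest for Id1. Id3 rose by 0.83 ± 0.14 on the log2 scale (517 ± 0.704 against 917 ± 140 CPM, adjusted p = 0.000598). Its SD of log2 CPM in KC1 was the narrowest among the 5443 genes with a mean of at least 20 CPM in each group. Some gene ranks narrowest in any such set, and whether Id3 is steadier than other genes was not tested.

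Within each library the log2 ratio of Id1 to Id3 was -1.24 ± 0.14 in KC1 and -2.81 ± 0.38 in KC2, a difference of -1.57 that does not depend on library scaling. The groups did not overlap (exact two-sided permutation test, p = 0.0286, the smallest that 4 against 4 libraries allow, and 0.0286 when adjusted over the 4 ratios tested). Cnpy3 and Mrpl28 had the profiles most like Id1 (0.08 and 0.08), and Tmco1 and Rsu1 those most like Id3 (0.05 and 0.06).

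In a list of other E protein, ID and ZEB genes together with Nab1 and Nab2, cofactor genes of the EGR factors that belong to none of these families, 3 of 8 were higher and 3 lower. These shares lay near those over all genes tested (31.9% higher, 27.9% lower). The median was -0.03, and with library totals as the only scaling 1 was lower. Id2, an inhibitor known from innate lymphoid and dendritic cells, fell from 626 ± 56.4 to 426 ± 53.0 CPM (-0.55 ± 0.14, adjusted p = 0.00654), and Nab2 fell from 32.5 ± 1.35 to 16.5 ± 5.35 CPM (-0.98 ± 0.22, adjusted p = 0.00317). Id4 was 0 to 0.139 CPM in KC1 and 16.3 to 27.4 CPM in KC2, and it passed the filter on low counts through KC2 alone. Among genes of Notch, TGF-beta and BMP signalling, the pathways that feed Id genes, 6 of 15 were higher and 4 lower (median 0.12), also near the shares over all genes. With library totals only 2 were lower. The co-receptor gene Eng, known from endothelium, rose from 36.8 ± 10.2 to 2703 ± 1164 CPM (6.20 ± 0.37, adjusted p = 4.10e-07) and the receptor gene Bmpr2 from 14.7 ± 2.76 to 87.7 ± 7.51 CPM (2.57 ± 0.15, adjusted p = 4.07e-07), while the receptor genes Acvrl1 (-1.85 ± 0.15, adjusted p = 3.45e-06) and Bmpr1a (-1.71 ± 0.54, adjusted p = 0.0186) fell.

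Maf was higher in KC2. Its level was 96.5, 89.1, 93.5 and 105 CPM in KC1 and 169, 168, 158 and 169 CPM in KC2. The groups did not overlap, and each held its libraries within a narrow range. The mean was 96.1 ± 6.88 CPM against 166 ± 5.44 CPM, and Maf rose by 0.79 ± 0.11 on the log2 scale (adjusted p = 0.00011). Ppp1r12a and Zmym5 had the profiles most like it, at 0.05 and 0.05. Gm15655 overlaps Maf on the opposite strand, so the limit given for Zeb2 holds for Maf too.

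Of 11 other Maf, MiT and related basic leucine zipper factors, 3 were higher and 6 lower (median -0.64), against 31.9% and 27.9% of all genes tested. The small Maf gene Mafg (-1.87 ± 0.12, adjusted p = 4.96e-07) and Mitf (-1.77 ± 0.34, adjusted p = 0.00112) fell. Nfe2l2, which encodes the oxidative stress factor NRF2, rose from 162 ± 23.1 to 371 ± 72.4 CPM (1.20 ± 0.17, adjusted p = 0.000175), as did Mafk (0.90 ± 0.19, adjusted p = 0.0023). Scavenger and complement genes linked to Maf were higher in 8 and lower in 4 of 14 cases (median 1.56), beside the same shares over all genes. When 1 library was left out 8 were higher and 2 to 4 lower, with 2 lower without KC1 replicate 3. No complement gene of the list was called higher. C1qb fell (-1.34, adjusted p = 0.0266), and C1qa (-0.58, adjusted p = 0.290) and C1qc (-0.54, adjusted p = 0.403) did not pass. Lyve1, a hyaluronan receptor also known from sinusoidal endothelium, rose from 20.9 ± 3.93 to 705 ± 101 CPM (5.08 ± 0.20, adjusted p = 6.63e-08) and Cbr2 from 2.84 ± 1.40 to 106 ± 65.0 CPM (5.21 ± 0.58, adjusted p = 2.73e-05). Il10, an anti-inflammatory cytokine and direct target of c-Maf, fell from 79.9 ± 15.5 to 9.18 ± 3.68 CPM (-3.12 ± 0.27, adjusted p = 4.17e-06), and the phospholipid transfer protein gene Pltp fell too (-1.94 ± 0.37, adjusted p = 0.000998).

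Irf8 lay close to the threshold. Its level was 376, 414, 388 and 382 CPM in KC1 and 265, 320, 348 and 330 CPM in KC2. The groups did not overlap, and KC2 replicate 1 was the lowest. The mean was 390 ± 16.9 CPM against 316 ± 35.8 CPM, with a log2 fold change of -0.31 ± 0.13 and an adjusted p of 0.0630. With upper quartile scaling the adjusted p was 0.0475, and with DESeq2 it was 0.0295, at log2 fold changes of -0.31 and -0.30, whereas with library totals only the value was -0.08 (adjusted p = 0.609) and with a replicate block the adjusted p was 0.0933. Rab1a and Scamp2 had the profiles most like Irf8, at 0.05 and 0.05. Gm20388 overlaps Irf8, so its reads may not be separated.

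Irf4 was the least abundant of the 9, at 4.77, 6.13, 2.82 and 4.23 CPM in KC1 and 5.97, 5.17, 8.44 and 8.52 CPM in KC2. KC1 replicate 2 lay within the KC2 range, and the other 3 KC1 libraries lay below it. The mean was 4.49 ± 1.37 CPM against 7.03 ± 1.71 CPM, from 42 to 152 counts a library, with a log2 fold change of 0.64 ± 0.30 and an adjusted p of 0.0864. Leaving out 1 library at a time gave 0.47 (without KC1 replicate 3, adjusted p = 0.21) to 0.82 (without KC1 replicate 2, adjusted p = 0.0495), and only the latter passed. With voom and library quality weights the value was 0.77 (adjusted p = 0.0347), with library totals only 0.87 (adjusted p = 0.0302), and with a replicate block 0.66 (adjusted p = 0.156). Dendritic cell markers and B and plasma cell markers, from cells known to express Irf4, were higher in the KC2 libraries. In KC2 replicates 1 to 4 they summed to 404, 262, 277 and 257 CPM and to 621, 160, 265 and 240 CPM. Replicate 1 thus held the highest sums, while its Irf4 level lay below those of replicates 3 and 4. The part of these cells in the Irf4 values was not tested.

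The within-library log2 ratio of Irf4 to Irf8 rose from -6.47 ± 0.43 to -5.50 ± 0.30, a difference of 0.97, with no overlap between groups (exact permutation p = 0.0286, adjusted p = 0.0286). Rc3h1 and Pcnx had the profiles most like Irf4, at 0.21 and 0.23.

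In the rest of the IRF family 1 gene was higher and 4 were lower of 7, against 31.9% and 27.9% of all genes tested, with a median of -0.31. Irf7, the amplifier of type I interferon responses, fell from 3576 ± 250 to 242 ± 84.7 CPM (-3.89 ± 0.30, adjusted p = 1.99e-06), and Irf5 fell from 377 ± 42.4 to 178 ± 61.2 CPM (-1.09 ± 0.26, adjusted p = 0.0039). Irf1, an interferon gamma response factor, rose from 249 ± 11.2 to 340 ± 38.6 CPM (0.45 ± 0.13, adjusted p = 0.0112). Irf8 was thus below Irf7 in every KC1 library and above it in every KC2 library in CPM, uncorrected for length.

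Genes linked to IRF8 were mixed, with 4 higher and 5 lower of 12 (median -0.21), against 31.9% and 27.9% of all genes tested. The antigen presentation gene H2-Eb1 (2.06 ± 0.30, adjusted p = 0.000157) and Ciita, the activator of MHC class II genes such as H2-Eb1 (2.70 ± 0.25, adjusted p = 7.00e-06), rose. Il18 (-3.77 ± 0.41, adjusted p = 2.44e-05) and the peptide transporter gene Tap1 (-2.06 ± 0.16, adjusted p = 2.10e-06) fell. Genes of alternative activation linked to IRF4 were higher in 6 and lower in 1 of 10 cases (median 2.50), and without KC2 replicate 1 in 6 and 2. Retnla was 0 to 0.269 CPM in KC1 and 15.5 to 150 CPM in KC2, and the lectin gene Mgl2 was 0 to 0.269 CPM and 45.5 to 154 CPM. Both passed the filter on low counts through KC2 alone. Arg1 fell from 79.3 ± 14.3 to 21.8 ± 9.67 CPM (-1.86 ± 0.29, adjusted p = 0.000301).

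Runx1 did not pass the test. Its level was 33.2, 24.7, 37.0 and 36.4 CPM in KC1 and 21.7, 28.0, 29.8 and 33.4 CPM in KC2. The groups overlapped, with replicate 2 lowest in KC1 and replicate 1 lowest in KC2. The mean was 32.8 ± 5.66 CPM against 28.2 ± 4.91 CPM (-0.22 ± 0.18, adjusted p = 0.302). Dvl1 and Naca had the profiles most like it, at 0.07 and 0.09, and Gm26626 overlaps Runx1 on the opposite strand.

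Relatives and partners of Runx1 were also measured. Runx2 rose from 0.614 ± 0.338 to 6.65 ± 3.45 CPM (3.42 ± 0.51, adjusted p = 0.000194), Cbfa2t3, a corepressor gene, from 1.32 ± 0.208 to 45.8 ± 12.2 CPM (5.11 ± 0.25, adjusted p = 1.44e-07), and Runx3, known from lymphocytes and dendritic cells, by 2.88 (adjusted p = 1.29e-06). Cbfb, which encodes the partner subunit that stabilises Runx proteins on DNA, had a log2 fold change of 0.02 (adjusted p = 0.931). Of the 4 tested, 3 were higher and 0 lower, against 31.9% and 27.9% of all genes tested.

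Regulators of Kupffer cell identity outside the 9 were higher in 11 and lower in 3 of 16 cases (median 0.85), against 31.9% and 27.9% of all genes tested. Nr1h3, which encodes the liver X receptor alpha, fell from 1638 ± 61.0 to 117 ± 63.4 CPM (-3.81 ± 0.49, adjusted p = 7.49e-05), and Tcf7l2 from 389 ± 34.4 to 73.5 ± 25.1 CPM (-2.40 ± 0.26, adjusted p = 1.98e-05), in the same libraries in which Spic and Zeb2 fell. Mef2c (4.63 ± 0.20, adjusted p = 9.04e-08) and Klf2 (2.71 ± 0.17, adjusted p = 5.41e-07), both known from endothelium as well, rose.

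**Figure D3:**
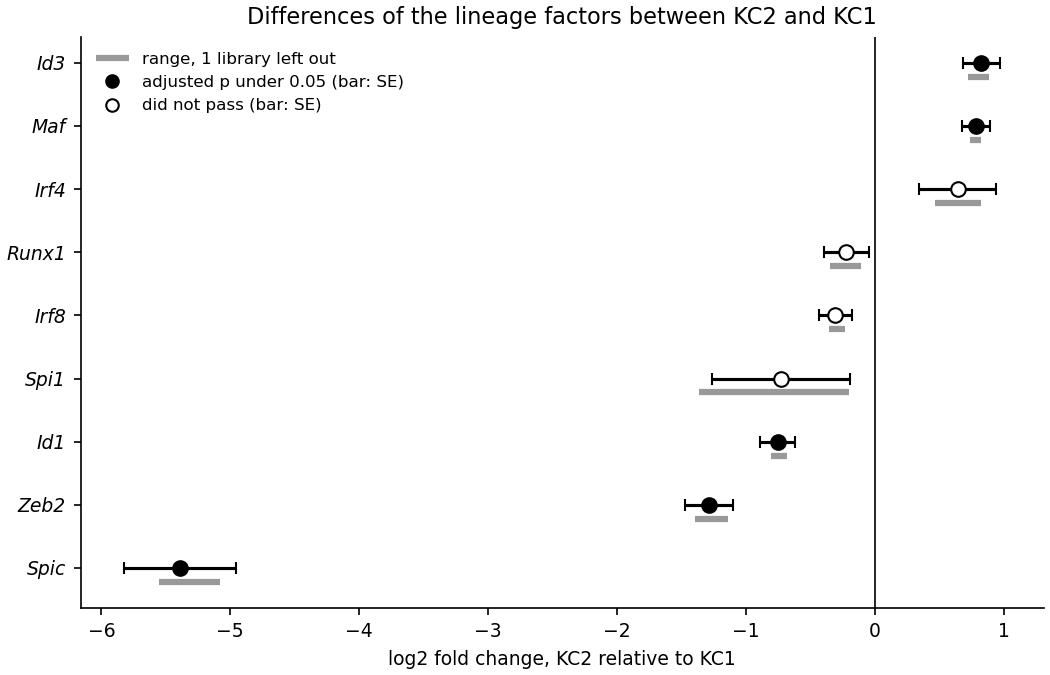
Log2 fold change of each factor in KC2 relative to KC1 (point) with its SE (bar), filled where the adjusted p was under 0.05, and the range of the value when 1 library is left out (grey). Spic lies at -5.39, apart from the other 8, and the grey range of Spi1 runs from -1.36 to -0.20.

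Because the pan-macrophage sum was lower in KC2, each factor was also set against the mean log2 CPM of the 10 pan-macrophage genes in the same library. This shifts all factors by nearly the same amount, so a sign on this scale is read only against that reference. On this scale Spic was 4.23 lower in KC2 by difference of means (-1.51 ± 0.33 in KC1, -5.75 ± 0.07 in KC2), and the KC2 libraries, replicate 1 included, lay within -5.83 to -5.66. Zeb2 was -3.20 ± 0.17 in KC1 and -3.17 ± 0.62 in KC2, a difference of 0.03 (exact permutation p = 1.0), and without KC2 replicate 1 the difference was -0.27. By other summaries the reference fell less than Zeb2: the median log2 fold change of the 10 genes was -0.90 and the log2 ratio of the mean sums was -0.72, against -1.29 for Zeb2 and -5.39 for Spic. Id1 (0.58, exact p = 0.114) and Spi1 (0.46, exact p = 0.6) overlapped between groups.

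The other factors were higher in KC2 relative to the macrophage genes, with no overlap between groups. The differences were 1.02 for Irf8, 1.12 for Runx1, 1.98 for Irf4, 2.12 for Maf and 2.15 for Id3. For these and for Spic the exact two-sided permutation p was 0.0286, the smallest that 4 against 4 libraries can give, and 0.0429 when adjusted over the 9 factors. The reference itself fell in KC2, so these p-values include its fall, and no value over all genes was computed on this scale. Without the reference, Irf8 (log2 fold change -0.31) and Runx1 (-0.22) were lower in KC2, and neither passed the test. Without KC2 replicate 1, where the macrophage genes were lowest, the differences of Irf8, Runx1, Irf4, Maf and Id3 on this scale were smaller, down to 0.63 for Irf8. The within-library log2 ratio of Spic to Spi1 was 1.96 ± 0.75 in KC1 and -2.74 ± 1.35 in KC2, with no overlap (difference -4.70, exact permutation p = 0.0286, adjusted p = 0.0286).

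**Figure D4:**
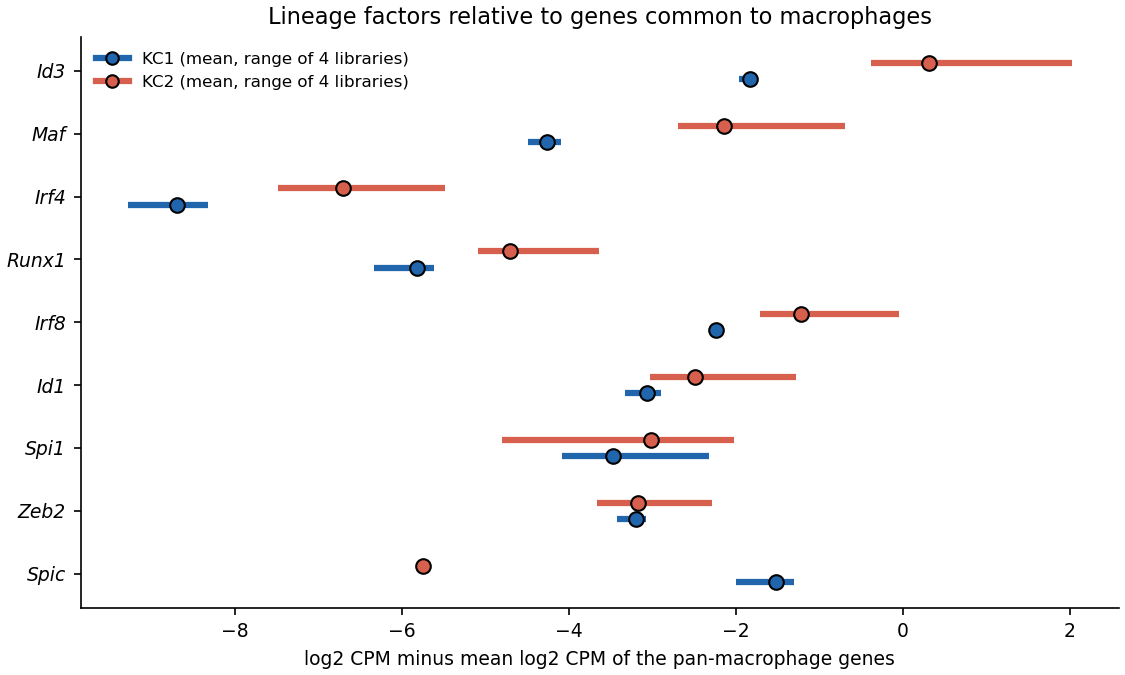
Log2 CPM of each factor minus the mean log2 CPM of 10 pan-macrophage genes in the same library, as the mean (point) and the range (line) of 4 libraries of KC1 (blue) and KC2 (red). Spic is lower in KC2 by 4.23, Zeb2 means differ by 0.03, and the KC2 lines of the other factors are longer than their KC1 lines.

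Levels were also divided by exon length, the union of all annotated exons of a gene, from 1.16 kb for Id1 to 19.9 kb for Zeb2. The transcripts expressed may be shorter, by an amount not measured here, so the order between genes is approximate. In KC1 it was Id3 at 288 CPM per kb, Id1 at 190, Spic at 170, Spi1 at 69.4 and Irf8 at 55.3. Below these came Maf at 11.7, Zeb2 at 10.1, Runx1 at 2.73 and Irf4 at 0.915. The libraries of Id1 and Spic, of Spic and Spi1, of Spi1 and Irf8 and of Maf and Zeb2 overlapped, so the order within these pairs was not resolved. In KC2 the order was Id3 at 512 CPM per kb, Id1 at 113, Irf8 at 44.7, Spi1 at 42.0, Maf at 20.1, Zeb2 at 4.15, Spic at 4.05, Runx1 at 2.35 and Irf4 at 1.43. There the libraries of Irf8 and Spi1, Spi1 and Maf, Zeb2 and Spic, and Spic and Runx1 overlapped, and so did Spic and Irf4, so the place of Spic among the lowest 4 was not resolved. Spic moved by its mean from the third to the seventh place, and the other factors kept their order except that Irf8 and Spi1, which overlapped in both groups, changed places.

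In early HCC and normal liver cells the factors were measured as a reference. Spic had no row in these tables. Spi1 had 1 to 7 counts in early HCC libraries and 2 to 10 in normal liver libraries, and Irf4 had 0 to 2 counts in early HCC and 0 in each normal liver library, against 634 to 5191 counts of Spi1 in a Kupffer cell library. A count of 0 allows up to 0.164 to 0.165 CPM in normal liver libraries (3 counts). Neither Spi1 nor Irf4 passed the filter on low counts.

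All 6 factors tested differed with Mef2d genotype in early HCC cells, where the test called 64.5% of 12093 genes, 32.3% higher and 32.2% lower. Id3 was 9.06, 8.86 and 10.9 CPM in WT and 4.12, 4.05 and 3.25 CPM in KO, with no overlap, and fell by 1.34 ± 0.13 on the log2 scale (adjusted p = 2.12e-07). Maf was 8.53, 8.41 and 7.27 CPM in WT and 4.70, 5.56 and 4.85 CPM in KO and fell by 0.68 ± 0.12 (adjusted p = 9.34e-05). Id1 was 10.1, 9.48 and 10.5 CPM in WT and 7.31, 7.01 and 6.90 CPM in KO and fell by 0.50 ± 0.09 (adjusted p = 0.000184). These 3 factors were thus lower in every KO library than in every WT library.

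Smaller differences were found for the others. Irf8 was 6.44, 6.32 and 5.74 CPM in WT and 7.71, 7.70 and 8.96 CPM in KO and rose by 0.40 ± 0.11 (adjusted p = 0.00424, and 0.0508 with DESeq2). Zeb2 rose by 0.19 ± 0.05, from 42.6 ± 1.53 to 48.6 ± 2.14 CPM (adjusted p = 0.00331). Runx1 fell by 0.15 ± 0.05, from 61.3 ± 3.34 to 55.3 ± 0.987 CPM (adjusted p = 0.0123), a call that was lost with DESeq2 (adjusted p = 0.0680) and without WT replicate 1 (adjusted p = 0.0508).

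Between WT early HCC and normal liver cells, which shares the WT libraries with the comparison above, all 6 were called, as were 87.2% of 12697 genes, 43.9% higher and 43.3% lower. Zeb2 had 1, 2 and 2 rounded counts in normal liver libraries and 735, 762 and 719 in WT early HCC libraries, a ratio of summed counts of 462 (95% exact counting interval 198 to 1420). Irf8 had 1, 1 and 2 rounded counts against 108, 112 and 101, a ratio of 83.6 (32.3 to 309). The intervals cover counting error only. Zeb2 and Irf8 passed the filter on low counts through the WT early HCC libraries alone, so their calls carry no weight and no p-value is given. Zeb2 thus stood at 42.3 ± 1.66 CPM in WT early HCC cells, and Irf8 at 6.12 ± 0.391 CPM.

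Maf was 34.3, 32.3 and 31.2 CPM in normal liver and 8.49, 8.35 and 7.20 CPM in WT early HCC cells and fell by 2.02 ± 0.08 (adjusted p = 2.02e-13). Id1 fell by 1.33 ± 0.09, from 25.0 ± 2.29 to 9.95 ± 0.499 CPM (adjusted p = 1.85e-10), and Runx1 rose by 0.59 ± 0.06, from 40.4 ± 1.97 to 60.9 ± 3.52 CPM (adjusted p = 2.68e-08). Id3 was 8.21, 7.77 and 7.52 CPM in normal liver and 9.03, 8.80 and 10.8 CPM in WT early HCC cells, a rise of 0.29 ± 0.11 (adjusted p = 0.0209). The Id3 call was lost with DESeq2 (adjusted p = 0.0977), without normal liver replicate 3 (adjusted p = 0.0742), without WT replicate 3 (adjusted p = 0.122) and, just above the threshold, without normal liver replicate 2.

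**Figure D5:**
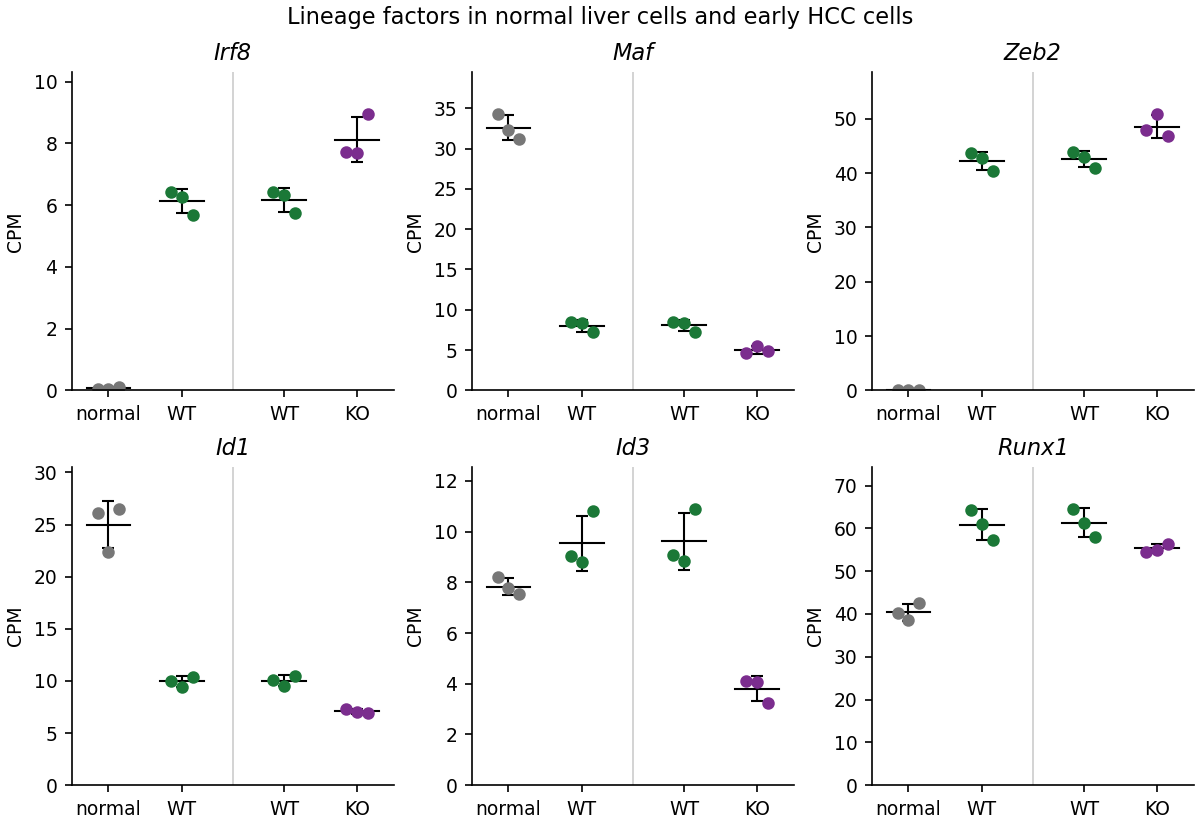
CPM (linear axis from 0) of the 6 factors tested in normal liver and WT early HCC libraries (left of each panel) and in WT and KO early HCC libraries (right), 3 libraries a group with the mean (line) and SD (bar). The same WT libraries stand on each side, scaled within their table; Zeb2 and Irf8 are near 0 in normal liver cells, and Id3, Maf and Id1 are lower in KO than in WT.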

How the data were processed

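RNA was measured in 17 libraries in 5 groups, named from the sample labels. The authors deposited expected counts per gene, estimates that need not be whole, in 3 tables, not normalized. FastQC, HISAT, RSEM and build mm10 are named in the submitters' processing notes, with no versions, and poly(A) selection and stranded library preparation are given per the labels' protocols. All value columns were matched to samples by title, with 0 left over. The 9 members, the 25 other gene lists and the tests were chosen with earlier results of these data known.

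Expected counts were rounded to whole numbers and fitted per table in R 4.3.3 by the quasi-likelihood test of edgeR 4.0.16 after filterByExpr and TMM scaling, with Benjamini-Hochberg adjustment over all genes tested and calls at an adjusted p under 0.05. CPM used TMM-scaled totals. A floor of 3 counts was 0.150 to 0.208 CPM and covers counting error only. Log2 ratios within a library had 1 added to each count, and exact tests used scipy 1.17.1; of the 4 ratios tested, 1 is not reported here. For levels relative to macrophage genes, log2 CPM had a prior count of 2. Exon lengths, the union of the exons of all transcripts of a gene, came from GENCODE M21 and positions from RefSeq GRCm38.p6. From each list of related genes, the called genes with a mean of at least 1 CPM in KC1 or KC2 were named, up to 2 in each direction by size. Slc40a1, Vcam1, Cd163, Csf1r, Fcgr3, Runx3, Cbfb, Clec4f, Timd4, Clec1b, Vsig4, Cdh5, Cd207, Tyrobp, Mertk, Ctss, Lyz2, Treml4, Plac8, Ly6c2, Ccr2, Mrc1, Esam, C1qa and C1qb were named outside that rule, after their values were seen. So were Csf3r, Hp, Fgb, Cps1, Tat, Spp1 and Sox9. The 2 genes most like each factor had the smallest root mean square difference of centred log2 CPM over the 8 Kupffer cell libraries, the same genes with a prior count of 0.5.

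Alternatives were RLE, upper quartile and library-total scaling, DESeq2 1.42.0, no filter, voom with quality weights in limma 3.58.1 (Kupffer cells), the replicate number as a block, and leaving out each library. Library totals and the counts per list were added after seeing the data. The fits were tested on simulated data. No pair of replicate libraries agreed within sampling noise (chi-square per degree of freedom 1.84 or more).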

Additional observations from a re-analysis of the deposited data

Results flagged for a closer look

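Each factor was screened in KC1 and in KC2 for a library far from the other 3, by the gap to its nearest neighbour as a share of the group's whole range, against Dixon's critical value for 4 libraries. Chance flags about 1 in 20 groups, and 18 groups were screened. Spi1 in KC1 replicate 4 was 360 CPM, with a gap share of 0.848, against 116 to 153 CPM in the other KC1 libraries. Maf in KC2 replicate 3 was 158 CPM, with a gap share of 0.916, against 168 to 169 CPM in the other KC2 libraries.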

How the results depend on the processing

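Over the alternatives run, the log2 fold changes of the 9 factors in KC2 against KC1 kept direction and side of the threshold in 128 of 135 values; 6 gained a call and Runx1 changed sign, to 0.0089 (adjusted p = 0.967), when library totals were the only scaling, which moved the median of all genes from 0.03 to 0.27. The number of factors called was 5 to 6 and of genes called 7114 to 7804 when 1 library was left out. In KO against WT, 3 of 72 factor values lost the call, and in WT against normal liver cells 4 of 72, as named above. Relative to macrophage genes the Zeb2 difference ran from -0.27 to 0.19 when 1 library was left out, below 0 without KC1 replicate 3 or KC2 replicate 1. Same-number correlations of replicates were -0.03 to 0.05 in Kupffer cells, where replicate 1 alone was most like its own number. They were -0.03 to 0.15 in KO against WT, where replicate 3 alone was. In WT against normal liver cells they were -0.085 to -0.035. With 3 or 4 libraries a group, such correlations cannot decide whether replicates were paired. With a replicate block 7287 genes were called in KC2 against KC1, and the same number of factors, 5. Of the counts per gene list, 7 of 360 moved by over 1.5 times. Precision is limited by 3 or 4 libraries a group, by the spread of Spi1, and by 42 to 152 counts for Irf4.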
